A study of Homo sapiens with 9 samples.

Results

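The unedited parental line of K562, an established cell line of erythroleukemia cells derived from a chronic myeloid leukemia, was compared with 8 CRISPR-edited clones of the line. The comparison takes the 1 parental library, which carries wild-type SRSF2, against all clones pooled whatever their SRSF2 genotype: 4 clones with wild-type SRSF2 (the WT clones, numbered W19, W33, W36, W42) and 4 with the P95H substitution (P95H clones P9, P15, P22 and P38). A gene was taken as a member where its parental value lay above the highest or below the lowest of the 8 clones, and 2900 of 20636 genes tested met that rule. Levels are in CPM, reads of a gene relative to all reads in genes of that library, scaled between libraries by trimmed means (TMM). The labels name no treatment, and they do not say how many editing events or passages stand between the parental line and each clone. With 1 parental library, the effects of editing, of growth from single cells, of time in culture and of the library itself cannot be told apart.

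A clone descends from a single cell and can carry forward part of the expression state of that cell, while a parental culture averages over many cells. Whether this accounts for any difference here was not tested. K562 cells hold the BCR-ABL fusion kinase, express fetal and embryonic globins, and can be driven further along the erythroid or the megakaryocytic path. SRSF2 is a serine- and arginine-rich splicing factor, and P95H is a recurrent substitution of it in myeloid malignancies. In bulk RNA, fewer cells expressing a gene and less RNA of that gene per cell cannot be told apart.

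Reads assigned to genes numbered 35477328 in the parental library, the deepest, and 24546255 to 32593383 in the clones. A count was recorded for 28561 genes in the parental library and for 26000 to 27131 in the clones. The K562 markers were present throughout: GATA1 was at 304 CPM in the parental line and 214 to 428 in the clones, and HBG2 at 1621 against 1103 to 3003. Among 9 markers of other cell types, MS4A1, KRT5 and PECAM1 were at 0 in all 9 libraries, and the summed level was 8.88 CPM in the parental line against 5.68 to 20.0 in the clones. SRSF2 itself was at 514 CPM in the parental line and 444 to 578 in the clones, a log2 difference of 0.06 (SE 0.16); the counts do not show which allele the reads carry. MFSD11 shares 36.7% of the SRSF2 exon length, and the kit named in the labels does not mark strand, so reads of overlapping genes cannot be separated. Clone W33 stood apart from all other libraries, and results that rest on it are given with and without it.

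Of the genes tested, 14.1% had a parental value outside the range of all clones. The parental line lay above all clones at 1485 genes (7.2% of those tested) and below all clones at 1415 (6.86%). Restricted to the 15629 genes that averaged at least 1 CPM, 1077 lay above (6.89%) and 953 below (6.1%), together 13.0%. Most lay within 1.5-fold of the nearest clone. At the edge, RHOXF2 was a member at 159.356 CPM against a highest clone of 159.345, and PFKFB3 was not one at 25.3436 against 25.3471. On the other side SEMA6C was a member at 4.20953 against a lowest clone of 4.2099, and DDX19A was not one at 80.5288 against 80.5061. A margin of 1.5-fold beyond the nearest clone left 124 members above and 207 below, and a margin of 2-fold left 59 and 86. Of the genes tested, 95 passed the filter on low counts through the parental library alone, and 94 of those lay above all clones, so counts of members that lie above include genes that had to differ.

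The same count was made for each library to show how ordinary it is to be the extreme of 9. The parental line was the highest or lowest library at 14.1% of genes, while W33 was at 50.9%, P9 at 28.1%, P15 at 26.8%, P22 at 25.05%, W42 at 20.2%, P38 at 14.3%, W36 at 9.44% and W19 at 8.93%. The parental line was thus extreme less often than 6 of the 8 clones, by count. Without W33 the parental members rose in number to 6536 (3406 above, 3130 below), or 31.7% of genes. In those 8 libraries P15 was extreme at 35.96% of genes, P9 at 31.4%, P22 at 31.2% and W36, the least, at 13.4%. With a margin of 2-fold, among genes averaging 1 CPM or more, the parental line lay above all others at 3 genes and below at 14. W33 did so at 79 and 190, P22 at 107 and 162, W36 at 2 and 20, P38 at 3 and 20, and W19 and W42 at 3 and 24 each. Without W33 the parental line was at 7 and 23, W36 at 4 and 20 and P38 at 5 and 20.

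**Figure D1:**
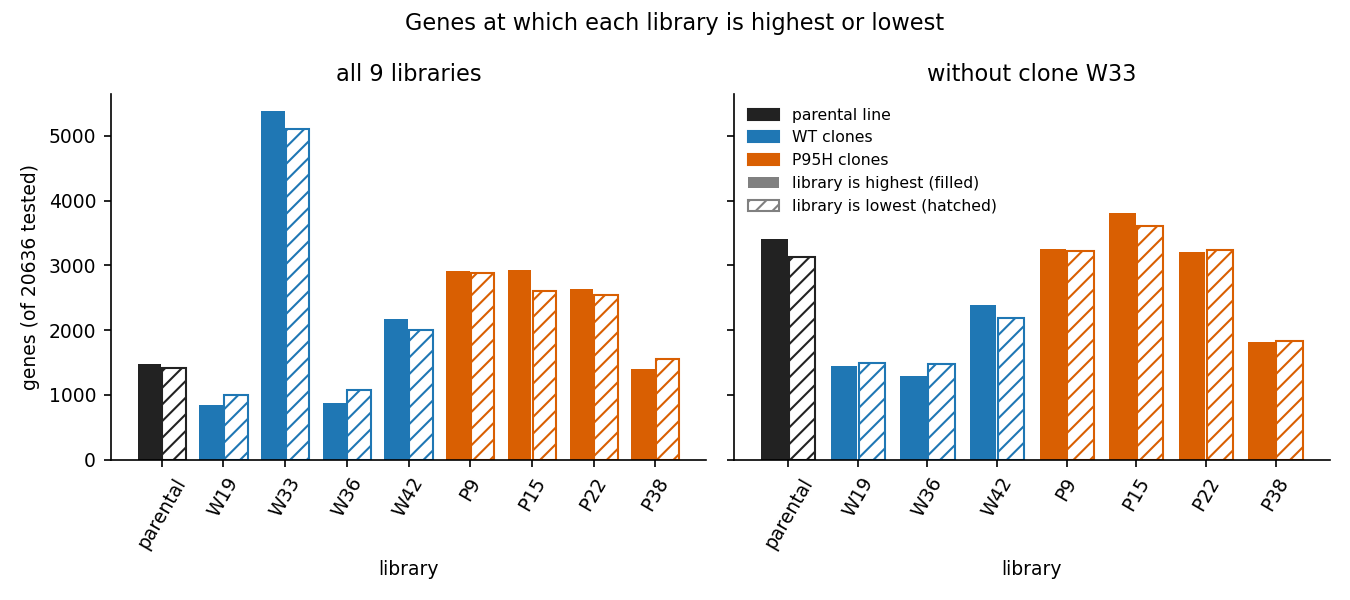
Number of genes, of 20636 tested, at which each library is the highest (filled bars) or the lowest (hatched bars), with all 9 libraries on the left and without clone W33 on the right. The parental line is at 1485 and 1415 genes on the left and at 3406 and 3130 on the right, where P15 has the tallest bars.

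Whole profiles were compared over genes averaging 1 CPM or more. The median absolute log2 difference between the parental line and a clone was 0.18 for W36, 0.19 for W19, 0.21 for P38, 0.23 for W42, 0.25 for P22, 0.31 for both P15 and P9, and 0.32 for W33. Between clones it ran from 0.11 (W19 and W36) to 0.49 (W33 and P9), with a median of 0.24 over 28 pairs, and the median over the 8 parental pairs was also 0.24. W33 was nearer to the parental line, at 0.32, than to any other clone, the nearest of which was W19 at 0.37. Without W33 the 7 parental pairs ran from 0.18 to 0.31 (median 0.23) and the 21 clone pairs from 0.11 to 0.28 (median 0.23), so that the parental line was farther from P9 and from P15 than any 2 of those clones were from each other.

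**Figure D2:**
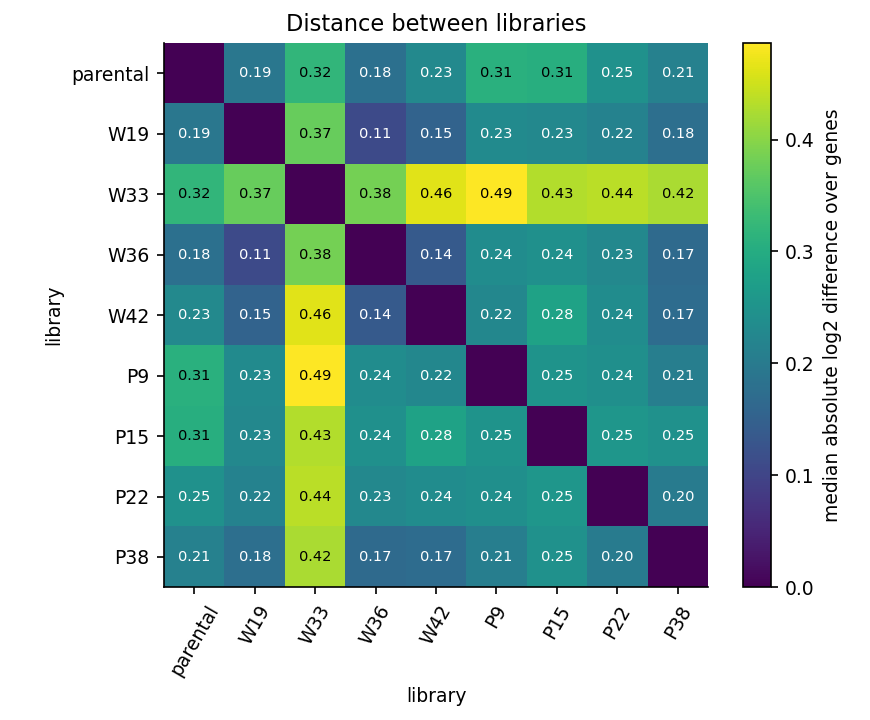
Median absolute log2 difference in CPM between each pair of libraries, over genes averaging 1 CPM or more, with darker cells for closer pairs. The row of the parental line runs from 0.18 (W36) to 0.32 (W33), inside the 0.11 to 0.49 seen between clones. W33 is far from every other library, and farther from each clone than from the parental line.

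The test across all genes called 4, all higher in the parental line: PAGE5, KYNU, NTS and DEUP1. They are 0.0194% of the genes tested (edgeR's quasi-likelihood test, Benjamini-Hochberg adjusted p under 0.05), and no gene was called lower. All 4 are among the 95 genes that passed the filter on low counts through the parental library alone, where they are high, and 0 genes were called under a filter of 1 CPM in at least 4 libraries, which none of the 4 passed. At an unadjusted p under 0.05 there were 361 genes, 179 higher and 182 lower. DESeq2 called 8 genes (0.0224%), 7 higher (0.0196%) and 1 lower (0.0028%), and limma-voom 35, all higher (0.17%), 31 of them above all clones; the 4 genes were called by both. The single parental library has no replicate, so each test takes its spread from the clones, and an exact two-sided permutation test of 1 library against 8 cannot give a p below 0.222.

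The 4 called genes had in common that they were read at 2.08 to 6.78 CPM in the parental line and at no more than 0.239 CPM in any clone. Their start regions, from 250 bases before to 50 after the annotated start (RefSeq, GRCh38.p14), are shown since these are the genes whose RNA was near absent from all clones; capitals mark CG dinucleotides, the bases that DNA methylation acts on. Of 35116 such promoters, the median holds 14 CG (quartiles 4 and 28). PAGE5 has 10 at chrX:55220096-55220395 (+ strand), KYNU 1 at chr2:142877414-142877713 (+ strand), NTS 2 at chr12:85874045-85874344 (+ strand) and DEUP1 47 at chr11:93330492-93330791 (+ strand). The 4 range from CG-poor to CG-rich: 97.6% of promoters have fewer CG than that of DEUP1, and 3.96% fewer than that of KYNU. A search of both strands found the letters TATAAA in the KYNU window (3 matches, a motif in 11.5% of promoters) and AGATAA in that of NTS (1 match, in 10.3%), and neither in those of PAGE5 and DEUP1.
PAGE5: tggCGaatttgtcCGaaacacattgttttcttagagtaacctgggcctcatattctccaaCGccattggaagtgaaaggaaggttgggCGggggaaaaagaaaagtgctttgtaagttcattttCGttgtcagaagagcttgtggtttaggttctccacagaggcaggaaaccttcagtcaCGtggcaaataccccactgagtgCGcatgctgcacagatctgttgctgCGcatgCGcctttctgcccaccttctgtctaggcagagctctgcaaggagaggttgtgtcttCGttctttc
KYNU: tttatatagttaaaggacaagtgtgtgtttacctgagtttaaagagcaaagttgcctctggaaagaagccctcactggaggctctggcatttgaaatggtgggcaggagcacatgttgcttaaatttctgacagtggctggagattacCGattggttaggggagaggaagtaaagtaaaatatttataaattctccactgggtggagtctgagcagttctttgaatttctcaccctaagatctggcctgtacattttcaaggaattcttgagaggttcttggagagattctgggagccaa
NTS: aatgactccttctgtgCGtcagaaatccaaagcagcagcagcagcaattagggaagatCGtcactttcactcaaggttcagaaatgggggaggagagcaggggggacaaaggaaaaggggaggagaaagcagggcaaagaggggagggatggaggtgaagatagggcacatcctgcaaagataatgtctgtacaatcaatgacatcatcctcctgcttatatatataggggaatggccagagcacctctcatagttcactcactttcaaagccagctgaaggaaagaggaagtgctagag
DEUP1: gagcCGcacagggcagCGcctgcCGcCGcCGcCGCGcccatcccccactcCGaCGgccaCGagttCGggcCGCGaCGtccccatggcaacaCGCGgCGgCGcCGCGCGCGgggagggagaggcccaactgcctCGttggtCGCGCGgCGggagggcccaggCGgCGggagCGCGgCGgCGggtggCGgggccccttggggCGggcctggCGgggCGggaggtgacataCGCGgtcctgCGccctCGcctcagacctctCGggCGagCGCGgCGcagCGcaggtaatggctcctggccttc

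PAGE5 is an X-linked member of the PAGE family of cancer-testis antigens, which are normally expressed in the germ line. It was read at 5.31 CPM in the parental line (184 counts) and at 0.036, 0, 0.064 and 0.147 CPM in W19, W33, W36 and W42. In P9, P15, P22 and P38 it was at 0.038, 0.031, 0.149 and 0.033 CPM. The parental value stood 35.5-fold over the highest clone, and the clones of both genotypes lay together. The log2 difference was 6.28 (SE 0.58; edgeR adjusted p = 0.00756), and the ratio of parental to pooled clone CPM was 81.5, with a 95% interval of 48.1 to 149 that covers counting error only. Its neighbours on the X chromosome did not share the pattern: PAGE2B was at 0.086 CPM against 0.060 to 1.36 in the clones, FAM104B at 18.0 against 16.01 to 24.7, MAGEH1 at 16.3 against 15.02 to 43.7 and ALAS2 at 26.7 against 17.7 to 726.

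KYNU encodes kynureninase, which cleaves kynurenine and 3-hydroxykynurenine on the route from tryptophan to NAD. It was at 6.78 CPM in the parental line (235 counts), at 0.036, 0.089, 0 and 0.037 CPM in W19, W33, W36 and W42, and at 0.153, 0.124, 0.239 and 0.066 in P9, P15, P22 and P38. The parental value was 28.4-fold over the highest clone, P22. The log2 difference was 6.10 (SE 0.63; edgeR adjusted p = 0.0108), and the ratio to the pooled clones was 71.0 (95% counting interval 45.8 to 115). Of its neighbours on chromosome 2, ARHGAP15, the next gene, was at 0.375 CPM in the parental line, 0.030 in P22 and 0 in the other 7 clones, too few reads to be tested. GTDC1, beyond it, was at 11.1 CPM against 8.23 to 13.0 in the clones and SPOPL, on the other side, at 6.60 against 3.96 to 7.60, both within the clones. HNMT, farther out than SPOPL, was at 2.36 CPM against 0.218 to 2.45, and P22 was the only clone above the parental line.

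NTS encodes the precursor of the peptide neurotensin. It had 72 counts in the parental line, or 2.08 CPM, and 3 counts in all clones together: 1 each in W33, W42 and P38, and none in W19, W36, P9, P15 and P22. The highest clone was at 0.044 CPM. The log2 difference was 6.90 (SE 0.74; edgeR adjusted p = 0.0115) and the ratio to the pooled clones 159, with a counting interval of 52.4 to 791. NTS was the 1 gene at 1 CPM or more in the parental line with 3 counts or fewer in each clone, and 0 genes showed the reverse, 3 counts or fewer in the parental line with 1 CPM or more in all 8 clones. LAMB4, a laminin chain gene, came close to that limit, with 3 parental counts and a lowest clone at 0.993 CPM.

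DEUP1 encodes a protein of the deuterosome, the structure on which multiciliated cells build many centrioles at a time. It was at 2.77 CPM in the parental line (96 counts), at 0.036, 0.044, 0.032 and 0.110 CPM in W19, W33, W36 and W42, and at 0.230, 0.093, 0.149 and 0.033 in P9, P15, P22 and P38. The parental value stood 12.05-fold over the highest clone, P9. The log2 difference was 4.86 (SE 0.59; edgeR adjusted p = 0.0288) and the ratio to the pooled clones 30.4 (95% counting interval 18.8 to 51.3). The call of DEUP1 was lost without any 1 of W19, W33, W36, W42, P15 or P38, while those of PAGE5, KYNU and NTS were not lost by leaving out any 1 clone. Each of these fits used the same single parental library, through which these genes passed the filter. They show dependence on single clones and do not test the parental value.

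HPGD, which encodes the enzyme that inactivates prostaglandins, came next, with 33 counts (0.951 CPM) in the parental line against 1 count each in W42 and P22 and none in the other clones. Its log2 difference of 6.21 (SE 0.84) missed the threshold in the edgeR test (adjusted p = 0.0623) and passed it in limma-voom (adjusted p = 0.000542). KIF1A, a kinesin motor gene, was at 3.26 CPM in the parental line, 1.38 in W33 and 0 to 0.073 in the others. Without W33 its log2 difference was 7.44 and it was called (edgeR adjusted p = 0.020); with W33 it was 4.25 and was not. HPGD and KIF1A were named after their values were seen.

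**Figure D3:**
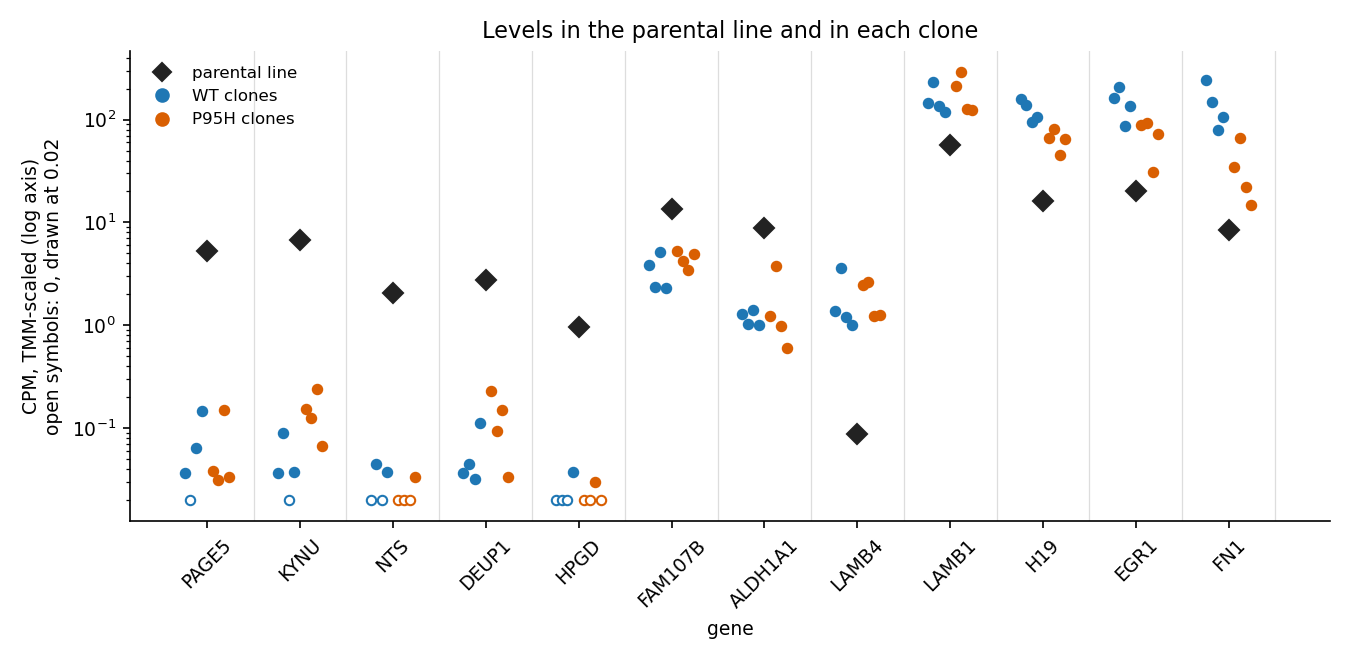
Level of 12 genes in each library, in TMM-scaled CPM on a log axis, with black diamonds for the parental line, blue points for WT clones and orange points for P95H clones; open symbols are values of 0, drawn at 0.02. PAGE5, KYNU, NTS, DEUP1 and HPGD lie at 0.951 to 6.78 CPM in the parental line and at or under 0.239 in every clone, and LAMB4, LAMB1, H19, EGR1 and FN1 lie below every clone.

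Members at moderate or high level were farthest from the clones at a few genes, and none of the following was called by edgeR. FAM107B was at 13.4 CPM in the parental line and 2.28 to 5.28 in the clones (log2 difference 1.77, SE 0.38). ALDH1A1, a retinaldehyde dehydrogenase, was at 8.79 CPM, in P15 at 3.77, and in the other 7 at 0.598 to 1.41. Its log2 difference was 2.63 (SE 0.59), and without P15 it was 3.02 and passed the threshold (edgeR adjusted p = 0.0249). DNAJC12, a heat shock protein 40 family co-chaperone, was at 28.4 CPM against 0.192 to 13.1, a spread among clones that is wider, as a ratio, than the gap to the parental line. Among genes averaging 1 CPM or more, these 3 were the ones at which the parental line was at least 2-fold above all clones. Others with a large gap were IGFBP2, an insulin-like growth factor binding protein, at 13.9 CPM against 0.332 to 8.002, and CLEC11A, a secreted growth factor of hematopoietic progenitors, at 106 against 14.5 to 68.2. Genes at lower level included STAP1 (5.05 CPM against 0.597 to 2.58), SLC22A15 (2.97 against 0.478 to 1.65), FYB1 (4.90 against 0 to 2.96) and CYP4V2 (2.71 against 0.697 to 1.65).

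**Figure D4:**
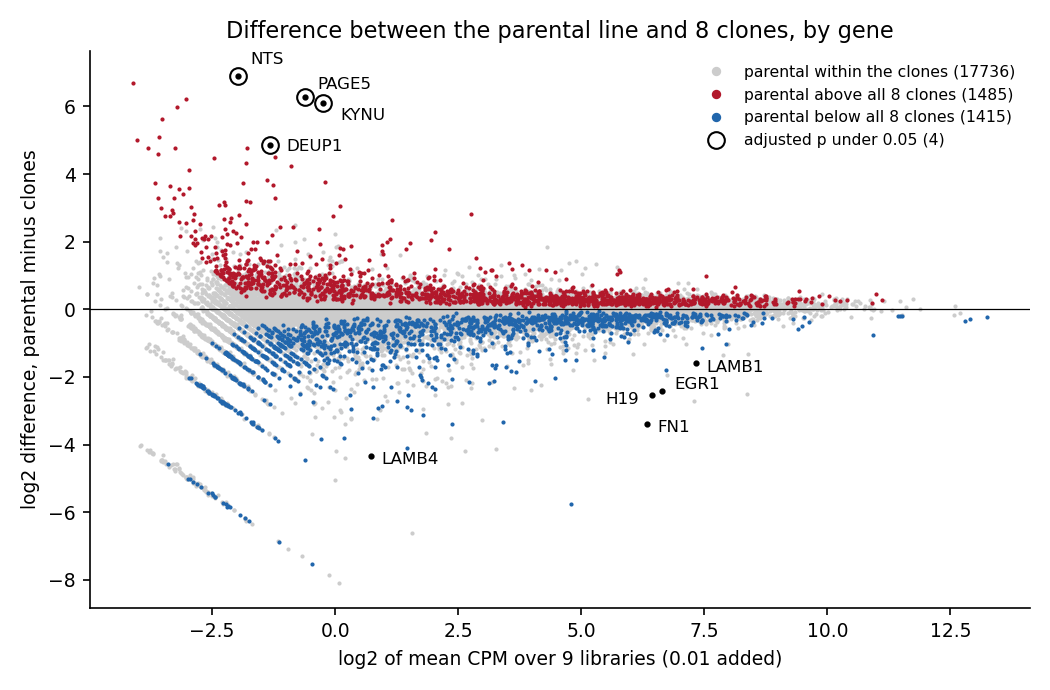
Log2 difference of each of 20636 genes, parental minus clones, against the log2 of its mean CPM over 9 libraries (0.01 added), with members above all clones in red, members below in blue and the 4 called genes circled. The called genes lie at the upper left, at low mean level, and most members lie close to 0.

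The genes farthest below the clones included 2 laminin chains that neighbour each other on chromosome 7. LAMB1, the laminin beta 1 chain of basement membranes, was at 57.1 CPM in the parental line, at 146, 233, 135 and 120 in W19, W33, W36 and W42, and at 212, 291, 126 and 124 in P9, P15, P22 and P38. The lowest clone was 2.10-fold above the parental line (log2 difference -1.60, SE 0.52; unadjusted p = 0.0111, not called). LAMB4, the beta 4 chain, had 3 counts (0.086 CPM) in the parental line and 0.993 to 3.60 CPM in the clones, so that the lowest clone was 11.5-fold higher (log2 difference -4.34, SE 1.003; unadjusted p = 0.00122, not called). The parental to pooled clone ratio of LAMB4 was 0.048 (95% counting interval 0.010 to 0.143). Among genes averaging at least 1 CPM, AC005046.1, annotated as antisense, and NRCAM, a neuronal cell adhesion molecule, complete a run of 4 consecutive genes below all clones. AC005046.1 was at 1.816 CPM against 1.821 to 5.38, and NRCAM at 0.663 against 0.731 to 6.72. AC005046.1 lies beside LAMB1 and shares 2.71% of its exon length. The genes on either side of the run lay within the clones: DLD at 352 CPM against 306 to 403, and PNPLA8 at 14.9 against 10.5 to 24.6.

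H19, an imprinted noncoding RNA expressed from the maternal allele, was at 16.2 CPM in the parental line. The WT clones were at 160, 140, 94.9 and 107 (W19, W33, W36, W42; mean 125 ± 29.7 SD, n = 4) and the P95H clones at 66.0, 81.7, 44.97 and 65.2 (P9, P15, P22, P38; mean 64.5 ± 15.1 SD, n = 4). The 3 groups did not overlap, in the order parental, P95H, WT. Of 1221 members below all clones tested for genotype, 9 had this order (0.737%) and 87 the order parental, WT, P95H (7.13%). Over all genes tested in both fits, the P95H clones all lay below the WT clones at 4.63%. The log2 difference from the clones was -2.55 (SE 0.68), not called by edgeR (unadjusted p = 0.00361) and called by DESeq2 (adjusted p = 0.01002). The genotypes differed by a log2 of -0.95 (P95H minus WT, SE 0.21; edgeR adjusted p = 0.282). Near H19 on chromosome 11, MRPL23-AS1 was also below all clones at 0.778 CPM against 0.896 to 2.66, while MRPL23 was within them at 95.2 against 47.8 to 194. Other imprinted genes lay on both sides: of 30 tested, 2 lay above all clones (DIRAS3 at 2.25 CPM against 0 to 0.578, and RTL1) and 2 below (H19 and KCNK9), 6.67% on each side and so near the shares over all genes, with a median log2 difference of -0.10.

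FN1 encodes fibronectin, a matrix glycoprotein. It was at 8.51 CPM in the parental line, at 243, 147, 78.7 and 107 in W19, W33, W36 and W42, and at 34.6, 66.6, 22.3 and 14.6 in P9, P15, P22 and P38. The order was parental, P95H, WT with no overlap, over a range of clones from 14.6 to 243. Of members below all clones, 0.737% had this order and 7.13% the order parental, WT, P95H. The log2 difference was -3.39 (SE 1.62; unadjusted p = 0.0654), and that of P95H minus WT clones was -2.05 (SE 0.49; edgeR adjusted p = 0.286). FN1 was named after its values were seen.

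EGR1, an immediate early transcription factor induced within minutes by serum and growth factors, was at 20.3 CPM in the parental line, at 162, 207, 86.0 and 135 in W19, W33, W36 and W42, and at 88.0, 92.2, 30.7 and 72.7 in P9, P15, P22 and P38. All clones were above the parental line, P22 by 1.51-fold, and the genotypes overlapped (P9 and P15 above W36). The log2 difference was -2.43 (SE 0.90; unadjusted p = 0.0234, not called). The window at its start, chr5:138465229-138465528 (+ strand), is shown for the serum response elements EGR1 is known for: capitals mark 2 matches to the CArG box, the letters bound by serum response factor, which 1.29% of the 35116 promoters hold.
EGR1: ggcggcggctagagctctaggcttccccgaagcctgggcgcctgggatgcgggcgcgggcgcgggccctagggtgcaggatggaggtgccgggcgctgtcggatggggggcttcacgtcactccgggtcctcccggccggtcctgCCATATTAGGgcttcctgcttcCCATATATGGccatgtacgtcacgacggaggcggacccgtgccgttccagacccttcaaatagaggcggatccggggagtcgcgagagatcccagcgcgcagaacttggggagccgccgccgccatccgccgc

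Other immediate early genes lay on both sides of the clones. Of 35 tested, 5 lay below all clones and 5 above, against 6.86% and 7.2% of all genes, with a median log2 difference of -0.07. Below were EGR1, FOS (1.36 CPM against 1.70 to 11.5), KLF6 (14.9 against 16.4 to 39.0), KLF4 and JUND (61.8 against 68.9 to 152). Above were DUSP6, FOSB, NR4A2, FOSL1 (21.0 against 7.44 to 20.8) and MYC (335 against 248 to 322).

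Of the other genes at which the parental line was at least 2-fold below all clones with a mean of at least 1 CPM, CHST3, a chondroitin sulfotransferase, had the widest spread. It was at 0.577 CPM in the parental line, 1.29 to 6.85 in the WT clones and 6.18 to 148 in the P95H clones. CITED4, a transcriptional coactivator, was at 0.404 against 1.31 to 8.34, and ASS1, argininosuccinate synthase of arginine synthesis, at 0.404 against 0.809 to 8.62. GABBR2, a GABA-B receptor subunit, was at 0.288 against 0.631 to 4.67, TAC3, the neurokinin B precursor, at 0.865 against 1.99 to 6.97, and DNMT3L, a cofactor of de novo DNA methylation, at 0.086 against 0.199 to 3.55. Short of that margin but at higher level, SLC7A8, a transporter of neutral amino acids, was at 32.8 CPM against 59.2 to 271, and GDF15, a stress-induced cytokine, at 17.8 against 29.2 to 109. GDF15 was chosen after its values were seen. In all of these the clones varied among themselves by more than the gap between the parental line and its nearest clone.

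Members were spread over the genome. Positions were followed only for genes averaging at least 1 CPM and placed on a chromosome, so for at most 1077 members above and 953 below. Runs of consecutive genes of that set on the same side were short. Of its members, 822 above and 726 below stood alone. The longest run was of 5 genes above on chromosome 21 (BTG3, C21orf91, MIR548XHG, PPIAP22 and LINC02573). In 596 bins of 25 neighbouring genes, the parental median lay outside the clones in 115, by a log2 gap over 0.1 in 7 and over 0.2 in 0. The widest gap was in a chromosome 19 bin from KIAA0355 to DMKN, with a parental median of -0.31 against -0.13 to 0.34 in the clones and 7 of its 25 genes below all of them. Of the mitochondrial genes averaging at least 1 CPM, 5 of 24 lay below all clones, 20.8%, and on the nuclear chromosomes that share was 2.90 to 9.51%.

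The members were also counted by how the 2 clone genotypes were ordered. The rule used the highest and the lowest of these same clone values, so the counts are a description and support nothing about genotype. Of 18173 genes tested in both fits, the P95H clones all lay above the WT clones at 3.94% and all below at 4.63%, together 8.57%, and none was called for genotype by edgeR at an adjusted p under 0.05. Of the 1245 members above all clones, 121 had all P95H clones below all WT clones (9.72%) and 6 had them above (0.482%). Of the 1221 below, 87 had the P95H clones above (7.13%) and 9 below (0.737%), so where the genotypes did not overlap the order was mostly parental, WT, P95H. H19 and FN1 are among the 9. Without W33, the members numbered 3098 above and 2868 below; 435 of the first (14.0%) had the P95H clones below and 49 above, and 278 of the second (9.69%) had them above and 40 below, against 6.97% above and 7.56% below over all genes.

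The 47 gene lists covered erythroid, stress, growth and RNA-processing genes; they are described by counts, since they were chosen with earlier results of these data known. Only 3 held a called gene: cancer-testis antigens (PAGE5), the tryptophan and NAD pathway (KYNU) and centriole and cilium genes (DEUP1). Over all genes tested, 46.2% had a log2 difference above 0, with a median of -0.03, while 7.2% lay above all clones and 6.86% below. By list median per library, the parental line lay above all clones in 5 lists, below in 5 and within in 37; without W33 these were 8, 7 and 32.

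In each of those 3 lists 1 gene was called. Of 30 cancer-testis genes tested, 4 lay above all clones (13.3%) and 1 below (3.33%), with a median log2 difference of 0.04. Measured by the list median of log2 CPM per library, the parental line was at 0.28, below W33 at 0.37 and above the other 7 clones, the highest of them P22 at 0.08. The others above were GAGE1 at 1.99 CPM against 0 to 1.46, GAGE12J at 1.33 against 0.531 to 1.07 and SAGE1 at 26.1 against 16.9 to 25.8, and MAGEA9 was below at 0.778 against 1.05 to 2.69. The GAGE and MAGEA families hold near-identical copies, so their counts are uncertain. Of 17 tryptophan and NAD genes, 3 lay above (17.6%) and 2 below (11.8%). Above were KYNU, NADSYN1 at 70.6 against 39.1 to 70.4, and NMNAT3. Below were IDO1, which opens the kynurenine pathway, at 0.058 CPM against 0.0996 to 0.537, and WARS, the tryptophanyl-tRNA synthetase, at 176 against 195 to 392. The median log2 difference of the 17 was 0.04. Of 24 centriole and cilium genes, 3 lay above (12.5%) and 0 below, and the median was 0.02. The 3 were DEUP1 and the centrins CETN3 (55.2 CPM against 34.7 to 47.0) and CETN2 (39.1 against 21.2 to 36.9).

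Amino acid response genes, which the factor ATF4 induces when amino acids run short, lay on the low side. Of 33 tested, 32 had a log2 difference below 0, and 0 were called. Below all clones lay 9 (27.3%, against 6.86% of all genes) and above them 0, and the median was -0.34. ASNS, asparagine synthetase, was at 84.2 CPM against 97.5 to 251 in the clones (log2 difference -1.14, SE 0.43), PSAT1, of serine synthesis, at 61.3 against 68.4 to 124, and SLC7A1, an arginine transporter, at 26.0 against 27.3 to 48.8. CHAC1 and TRIB3 lay within the clones, where P22 was the lowest (1.43 CPM against 1.53 in the parental line, and 44.46 against 44.55). By list median the parental line was within the clones at -0.32, between P22 at the low end and the other 7.

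Erythroid genes varied widely among clones, and the parental line lay on different sides by list. All 10 globin genes tested had a log2 difference below 0, measured from a clone mean that a few clones with high values raise. By list median the parental line was lower than 4 clones and higher than 4 (W19, W36, W42 and P22), and 0 globin genes lay outside the clones: HBE1 was at 63.9 CPM against 59.0 to 1395 and HBZ at 99.3 against 57.5 to 681. Of 13 heme synthesis genes, 3 lay below all clones (23.1%, against 6.86% of all genes) and 0 above, with a median of -0.29. FECH, ferrochelatase, was at 34.5 CPM against 39.4 to 90.8, ALAD at 20.6 against 21.3 to 37.0 and ALAS1, the non-erythroid first enzyme, at 26.2 against 26.6 to 40.7, while ALAS2, the erythroid one, lay within the clones. Of 28 red cell membrane genes 21 had a difference below 0, and DMTN was the 1 below all clones (3.57%), at 5.02 CPM against 6.87 to 33.2. Among 18 genes listed as erythroid transcription factors, 2 lay above all clones (11.1%) and 0 below. The 2 were MYB, at 234 CPM against 112 to 228, and NFE2L2, also listed under oxidative stress, at 85.6 against 65.3 to 82.9. Of the 18, 10 had a difference above 0 (median 0.02). The HBG1 and HBG2 genes are near-identical, as are HBA1 and HBA2, so reads of each pair may be split or dropped; AC104389.4 shares 81.3% of the HBE1 exon length.

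**Figure D5:**
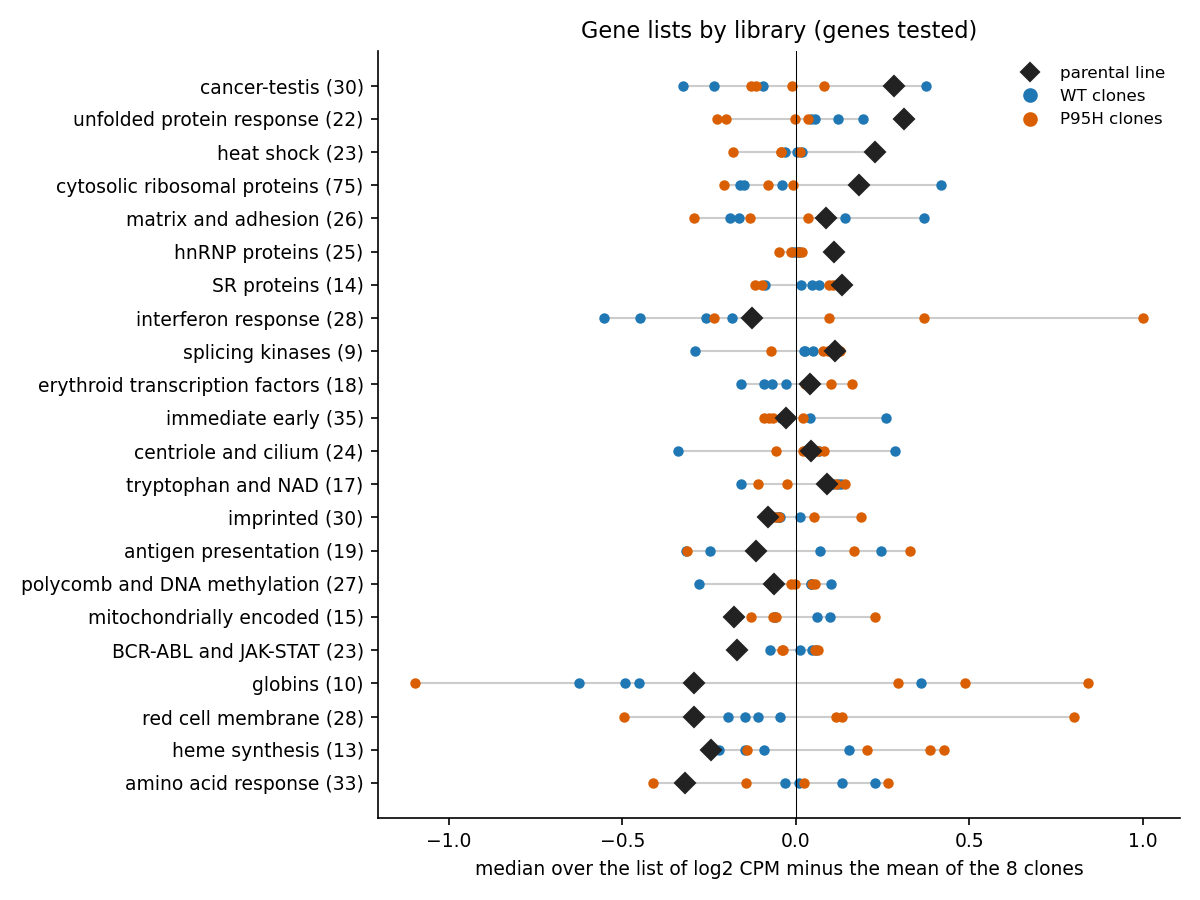
Median over each list of log2 CPM minus the mean of the 8 clones, for 22 lists (genes tested in brackets), with a black diamond for the parental line, blue points for WT clones and orange points for P95H clones; grey lines span the clones. The parental line is right of all clones for unfolded protein response, heat shock, SR and hnRNP genes, left of all for heme synthesis, BCR-ABL and JAK-STAT, imprinted and mitochondrially encoded genes, and inside the clones for globins.

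Chaperone genes were on the high side. The unfolded protein response is the reaction to misfolded protein in the endoplasmic reticulum. Of 22 of its genes, 6 lay above all clones (27.3%, against 7.2% of all genes) and 1 below (4.55%). Their median was 0.30, and 0 were called. PDIA4, a disulfide isomerase, was at 366 CPM against 181 to 297, HSP90B1, the reticulum's HSP90, at 950 against 428 to 823, and CALR, calreticulin, at 1007 against 716 to 975; the 1 below was DDIT3, at 28.2 against 29.8 to 50.4. Of 23 heat shock genes, 20 had a difference above 0 (87.0%, against 46.2% of all genes) and 5 lay above all clones (21.7%), with a median of 0.19. HSP90AA1 was at 2684 CPM against 1547 to 2344, HSPD1, the mitochondrial chaperonin, at 1147 against 712 to 1011 and HSPH1 at 217 against 147 to 194.

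Among RNA processing genes, those of SR and hnRNP proteins showed small differences to the high side. By list median the parental line was within the clones for core spliceosome, splicing kinase and nonsense-mediated decay genes. Without W33 it was above them for core spliceosome genes. Of 36 core spliceosome genes, 3 lay above all clones (8.33%) and 2 below (5.56%), and of 14 nonsense-mediated decay genes 3 and 2. Of 14 SR protein genes, 5 lay above all clones (35.7%, against 7.2% of all genes) and 1 below (7.14%), with a median log2 difference of 0.13. TRA2A was at 113 CPM against 82.8 to 100.5, SRSF1 at 544 against 419 to 527 and SRSF3 at 720.4 against 512 to 720.1, and SRRM2 was below at 642 against 675 to 841. Of 25 hnRNP genes, 7 lay above (28%) and 0 below, with a median of 0.11. Among the 7 were HNRNPC (912 CPM against 619 to 887), HNRNPA2B1 (2151 against 1715 to 1999) and HNRNPLL (107 against 60.7 to 102). CLK1, a kinase that phosphorylates SR proteins, was at 44.2 CPM against 28.9 to 34.3, a log2 difference of 0.48 (SE 0.15; unadjusted p = 0.0104, not called). Of 75 cytosolic ribosomal protein genes, 63 had a difference above 0, but the 4 above all clones (5.33%) were a smaller share than the 7.2% over all genes; the median was 0.16, within the clones, of which W33 and P38 were higher by list median and 6 lower.

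Mitochondrially encoded transcripts and genes of BCR-ABL signalling were on the low side. Of 15 mitochondrially encoded genes listed, 5 lay below all clones (33.3%, against 6.86% of all genes) and 0 above, with a median of -0.18. MT-CO2 was at 5673 CPM against 6203 to 8778, MT-RNR2 at 6438 against 6738 to 8823 and MT-CO1 at 8360 against 8679 to 11530. Of 23 BCR-ABL and JAK-STAT genes, 20 had a difference below 0. Below all clones lay 4 (17.4%), BCR (66.2 CPM against 66.7 to 102), ABL1 (225 against 227 to 279), PIM1 (281 against 301 to 538) and BCL2L1. STAT5A lay above (4.35%), at 490.9 against 267 to 490.1. The lowest clone for BCR was W33, at 66.7, and the other 7 were at 78.6 to 102. Interferon response genes (1 above and 1 below of 28, 3.57% each) and antigen presentation genes (0 of 19) were outside the clones less often than all genes. The spread of the clones was wide there: IFITM2 was at 84.9 CPM against 7.24 to 100.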

How the data were processed

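RNA was measured in 9 libraries, 1 of the parental line and 8 of clones, each from 1 culture; the labels do not say that clones came from separate edits, so p-values measure the spread between these clones. Poly(A)-selected TruSeq libraries were run on a HiSeq2000, per the labels' protocols. Files hold the authors' raw counts of reads per gene (Ensembl release 75, GRCh37), made with TopHat2 2.0.4 and HTSeq 0.6.1p1 per the submitters' processing notes; for strand setting and count mode these sources give nothing. Reads outside any gene (47.6 to 49.1%), ambiguous reads and multiply aligned reads were kept out of library sizes. Symbols, types and chromosomes came from GENCODE 29 by gene ID, for 52526 of 63677 IDs.

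The main test was edgeR 4.0.16 (R 4.3.3): filterByExpr, TMM scaling, robust quasi-likelihood F test, Benjamini-Hochberg over 20636 genes. Its residual degrees of freedom were 7, all from the clones. Log2 CPM used a prior count of 2. DESeq2 1.42.0, limma-voom (limma 3.58.1), other scalings, filters, clones left out and thinned counts were alternatives. In simulated data for this comparison (20083 genes), 77% of 4-fold and 92% of 16-fold changes were recovered, with 11 false calls. The changed genes were drawn only from genes with an expected clone count above a set limit. PAGE5, KYNU, NTS and DEUP1 lie under that limit, so the rates do not cover genes of their level. The rates were also not split by level, so they do not give the share of real changes the test would find. In the real data LAMB4 (log2 difference -4.34) was not called, while PAGE5, KYNU, NTS and DEUP1 (4.86 to 6.90) were. Genes named were the marker genes, up to 12 per direction with the largest gap to the nearest clone, and up to 4 per list by p (2 genes of this rule are not reported here), besides those stated as chosen after their values were seen, and those named as the members of a list outside the clones. The members and lists were chosen with earlier results of these data known.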

Additional observations from a re-analysis of the deposited data

Results flagged for a closer look

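Of 118 named genes, 18 had 1 clone far from the other 7, by the ratio of its gap to the whole range (Dixon's 95% limit). About 1 in 20 groups of normally distributed values would pass that limit. The values used here were CPM, not logs, and all 18 clone values found were above the other clones. The 18 can therefore not be set against that rate. The clones concerned were P15 at 7 genes, W33 at 4, P22 at 3, P9 at 2, and W19 and P38 at 1 each. In P15, high CPM was read for ALDH1A1 (3.77, the other clones 0.598 to 1.41), CHST3 (148, others 1.29 to 70.1), ASS1 (8.62, others 0.809 to 4.003) and ALAS2 (726, others 17.7 to 190). The same clone was high for PARP14 (62.1, others 18.3 to 28.6), PIM1 (538, others 301 to 366) and GDF15 (109, others 29.2 to 56.3).

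In W33, RPS9 was at 968 CPM (others 562.03 to 732), MAGEA3 at 149.9 (others 105 to 123), NRCAM at 6.72 (others 0.731 to 2.87) and KIF1A at 1.38 (others 0 to 0.0728). In P22, FYB1 was at 2.96 CPM (others 0 to 1.38), IFITM2 at 100.02 (others 7.24 to 35.9) and AP1S2 at 68.3 (others 11.3 to 17.1), with the parental line at 39.0 for AP1S2. In P9, SLC22A15 was at 1.65 CPM (others 0.478 to 0.983) and HBB at 1.26 (others 0.0597 to 0.618). In P38 KIAA1024 was at 3.42 CPM (others 1.11 to 2.01), and in W19 ENSG00000204807 was at 1.201 (others 0.383 to 0.6255, parental 3.98).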

How the results depend on the processing

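The count of 4 genes called was 4 with RLE or upper quartile scaling, a 3-group model and a test against a 1.2-fold change, and 6 without the filter. It was 0 under a filter of 1 CPM in 4 libraries, which none of the 4 genes passed, 8 with DESeq2, 35 with limma-voom, and 0 against the WT clones alone or the P95H clones alone, where fewer clones give the spread. Leaving out 1 clone gave 3 to 4 calls, with KIF1A in place of DEUP1 without W33, ALDH1A1 without P15 and ENSG00000204807 without W19. The 2900 genes outside the clones were 5542 without the filter, 331 and 145 with margins of 1.5-fold and 2-fold, 2907 in counts thinned to 24546255 reads, and 3088 to 6536 without 1 clone, the highest without W33. The 121 members above all clones with the P95H clones below the WT clones were 435 without W33, and the 87 below with them above were 278, alternatives added after seeing the data. Of 2103 values of single genes under the alternatives, 2073 kept direction and side of the threshold, and AHSP turned, to 0.14 against the WT clones alone; the cause was not tested. Genes under about 0.1 CPM rest on 3 counts or fewer per library. No paired analysis was possible because a single parental library stands against 8 different clones.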
